A study of Mus musculus with 6 samples.

Results

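The genes described here carry peptides to MHC class I molecules, trim them, or switch the pathway on: Tap1, Tap2, Tapbp, Tapbpl, Erap1 and Nlrc5. They were chosen by symbol, all 6 have a row among the 23491 gene symbols of the deposited count table, and all 6 passed the filter on low counts that kept 14727 genes. RNA was sequenced from microglia, the resident macrophages of the brain, purified from cerebellum. The treated mice were Fmr1 knockout animals given poly(I:C), a synthetic double-stranded RNA that mimics viral infection, by intraperitoneal injection (3 libraries). The controls were Fmr1 knockout animals labelled saline in the treatment field and sham in the titles (3 libraries). Every mouse in the comparison is thus labelled with the Fmr1 knockout, a model of fragile X syndrome, and no wild-type animals are compared here. Dose, time after injection, age and sex are not stated in the sources used, nor is whether replicates were separate animals, so p-values measure the spread between libraries, which may be technical.

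Cells show fragments of their own proteins, and of any virus inside them, on MHC class I molecules for CD8 T cells to inspect. Proteasomes cut proteins into peptides, the TAP1 and TAP2 subunits together pump these peptides into the endoplasmic reticulum, and the aminopeptidase ERAP1, called ERAAP in mice, shortens them to fit. Tapasin, encoded by Tapbp, holds empty class I molecules beside the TAP pump, while its relative TAPBPR, encoded by Tapbpl, exchanges peptides away from the pump. NLRC5 is a nuclear transactivator that works with the RFX proteins at class I promoters, as CIITA does at class II promoters. Resting microglia display little class I, and interferon is known to raise it.

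Promoter windows from RefSeq on build GRCm38.p6 were matched by symbol for 3 of the 6 genes, and are shown because the letters bound by interferon-activated factors can be looked for in them. Each runs from 250 bases before to 50 bases after the annotated start site, on the plus strand. The counts were made on another build, GRCm39, so these coordinates belong to the sequences only. The windows are chr17:34187306-34187605 for Tap1, chr17:33919228-33919527 for Tapbp and chr13:74639603-74639902 for Erap1. Capitals mark the core of the interferon-stimulated response element.
Tap1: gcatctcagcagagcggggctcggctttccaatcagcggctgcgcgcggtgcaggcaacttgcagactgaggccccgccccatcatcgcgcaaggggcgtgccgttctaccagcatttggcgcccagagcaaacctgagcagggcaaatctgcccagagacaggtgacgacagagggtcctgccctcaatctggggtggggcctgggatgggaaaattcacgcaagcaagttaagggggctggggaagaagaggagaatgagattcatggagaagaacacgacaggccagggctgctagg
Tapbp: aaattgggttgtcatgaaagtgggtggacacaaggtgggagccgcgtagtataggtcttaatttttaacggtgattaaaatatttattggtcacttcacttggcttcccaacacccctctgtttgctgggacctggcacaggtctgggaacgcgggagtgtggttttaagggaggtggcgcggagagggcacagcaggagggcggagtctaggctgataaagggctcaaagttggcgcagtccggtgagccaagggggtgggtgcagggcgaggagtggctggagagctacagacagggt
Erap1: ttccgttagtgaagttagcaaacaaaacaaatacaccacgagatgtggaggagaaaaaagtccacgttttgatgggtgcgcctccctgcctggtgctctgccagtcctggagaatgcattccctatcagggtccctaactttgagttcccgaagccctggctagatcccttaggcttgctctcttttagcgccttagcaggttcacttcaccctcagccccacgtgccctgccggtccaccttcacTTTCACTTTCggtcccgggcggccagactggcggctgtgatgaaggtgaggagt
The response element core was searched on both strands as GAAANNGAAA. It was found once, in the Erap1 window at position -4 from the start site, and 3.44% of all 32851 promoter windows hold it. A CCAAT box was in the Tap1 and Tapbp windows, as in 37.4% of all windows. Tap2, Tapbpl and Nlrc5 are named only.

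The libraries held between 33710545 and 33781938 counts with poly(I:C) and between 34608620 and 34899835 with saline, so the smallest count of any of the 6 genes, 198 for Nlrc5 in saline replicate 2, lies far above the 3 counts taken as the detection floor. Fmr1 itself still gave reads, at 53.7 ± 9.42 CPM with poly(I:C) and 39.0 ± 1.41 CPM with saline (SD, n = 3 each), which checks neither genotype nor labels without a wild-type group. All 8 microglial markers were detected, and their summed level was 27387 to 37834 CPM with poly(I:C) and 34844 to 40620 CPM with saline. Cells were enriched on CD11b beads, and other CD11b cells were present. Saline replicate 1 stood apart with a summed level of 15803 CPM for 8 neutrophil markers, against 1796 to 1886 CPM in the other saline libraries. The poly(I:C) libraries had 1808, 391 and 459 CPM in replicates 1 to 3, so replicate 1 was the highest in both groups. Poly(I:C) replicate 1 had the highest sum of 7 choroid plexus markers, 19197 CPM, against 7600 and 9240 CPM in the other poly(I:C) libraries and 3931 to 8386 CPM with saline. Markers of dendritic cells, which present antigen on class I, summed to only 23.6 to 31.1 CPM with poly(I:C) and 31.8 to 40.1 CPM with saline, and their part in the results was not tested. In such bulk libraries, more transcript per cell and more cells of a type that expresses a gene cannot be told apart.

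Poly(I:C) was accompanied by higher Nlrc5 and Tap1 transcripts. Nlrc5, the transactivator, rose 4.73-fold, and Tap1, one side of the peptide pump, rose 2.02-fold. The other 4 genes, Erap1, Tapbpl, Tapbp and Tap2, stood between 1.14-fold and 1.41-fold higher and did not pass the test. Thus 2 of the 6 were called higher and 0 lower by edgeR's quasi-likelihood test at a Benjamini-Hochberg adjusted p under 0.05, where 0.883% of all tested genes were called higher and 0.0747% lower. In all 6 genes every poly(I:C) library lay above every saline library, which 14.0% of tested genes did in this direction. The median log2 fold change was 0.49 over the 6 genes and 0.0098 over all tested genes. Values are given as CPM, read counts set to a common library total by TMM scaling.

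**Figure D1:**
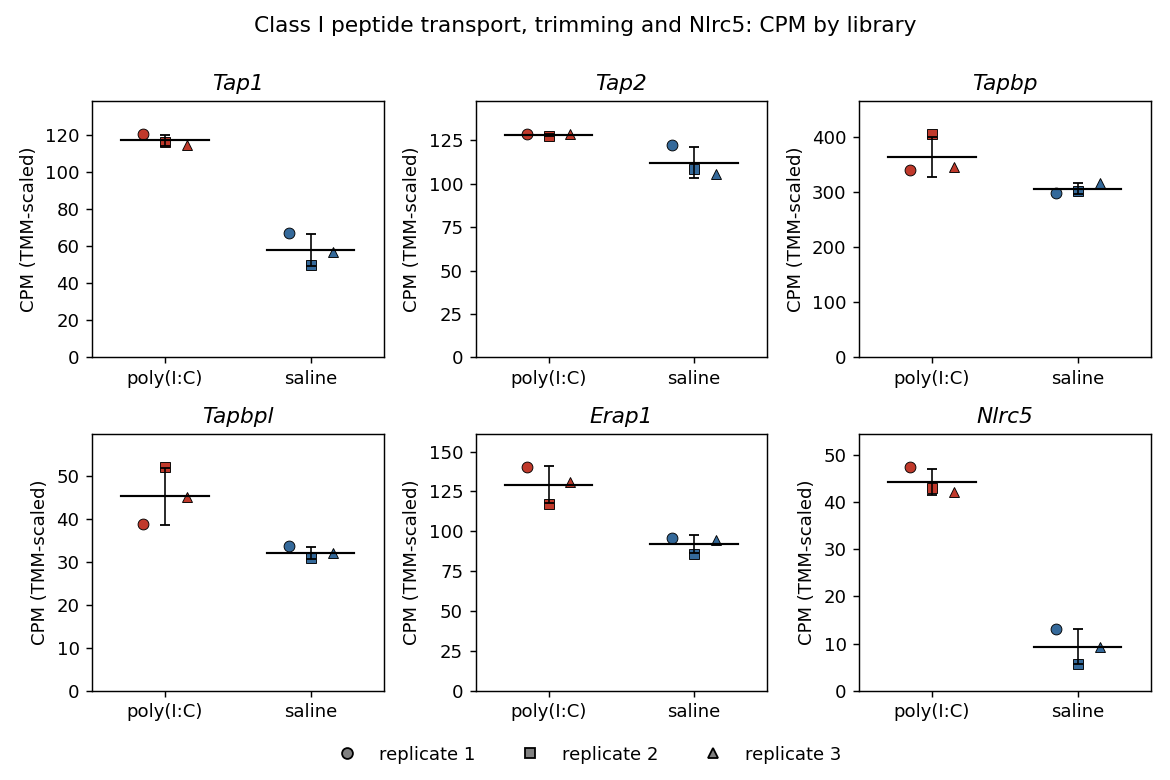
CPM in each library for the 6 genes, with poly(I:C) on the left and saline on the right of each panel. Symbols are replicates, the line is the mean and the bar the SD. Nlrc5 and Tap1 are separated widely between groups, while the highest saline value of Tap2, 123 CPM, comes close to its poly(I:C) values of 128 to 129 CPM.

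Nlrc5 had 47.3, 43.1 and 42.2 CPM in the poly(I:C) libraries, in the order of replicates 1 to 3, against 13.1, 5.72 and 9.20 CPM in the saline libraries. The lowest poly(I:C) library was 3.21 times the highest saline library, and the saline libraries were more scattered, with a coefficient of variation of 39.7% against 6.22% with poly(I:C). The log2 fold change was 2.24 (SE 0.28, 95% interval 1.57 to 2.92, edgeR adjusted p = 0.0185). Only 0.801% of tested genes had a larger fold change. Leaving out poly(I:C) replicate 1, 2 or 3 or saline replicate 3 kept it between 2.21 and 2.27 but ended the call, with edgeR adjusted p of 0.0630, 0.0589, 0.0977 and 0.130. Without saline replicate 1, the library rich in neutrophil transcripts and the highest of the saline values, it was 2.56 (adjusted p = 0.00336). Annotated exons of Nlrc5 share 78 bases, 0.918% of their length, with the non-coding gene 9330175E14Rik on the opposite strand. That gene had 31, 20 and 26 counts with poly(I:C) and 2, 1 and 0 counts with saline, and did not pass the test (edgeR adjusted p = 0.0612).

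Tap1, an ATP-driven transporter subunit, had 121, 116 and 115 CPM with poly(I:C), against 67.4, 50.1 and 57.0 CPM with saline. The poly(I:C) libraries were close to each other and the lowest was 1.70 times the highest saline library, which was again saline replicate 1. The log2 fold change was 1.01 (SE 0.12, 95% interval 0.74 to 1.29, edgeR adjusted p = 0.0122), and 7.42% of tested genes had a larger one. The call was lost without poly(I:C) replicate 3 (1.03, edgeR adjusted p = 0.0809) and without saline replicate 3 (1.00, adjusted p = 0.101), and held without saline replicate 1 (1.12, adjusted p = 0.00457).

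Tap2, which pairs with TAP1 to form the pump, had 129, 128 and 129 CPM with poly(I:C), against 123, 109 and 106 CPM with saline. The groups were separated by only 5.11 CPM, with saline replicate 1 nearest to the poly(I:C) libraries. The fold difference was 1.14 with a 95% interval of 1.00 to 1.31, and Tap2 did not pass the test (edgeR adjusted p = 0.236). On the gene annotation of build GRCm38, its exons share 18.5% of their bases with the non-coding genes Gm20496 and Gm15821 on the opposite strand, which are not analysed here.

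Erap1, the trimming peptidase, had 140, 117 and 131 CPM with poly(I:C), against 95.7, 85.6 and 94.6 CPM with saline. Every poly(I:C) library exceeded the highest saline library by at least 21.5 CPM. The log2 difference of 0.49 (SE 0.09, 95% interval 0.27 to 0.71) missed the threshold in edgeR (adjusted p = 0.0823). Erap1 passed in DESeq2 at 0.46 (adjusted p = 0.00707) and in limma-voom with quality weights at 0.50 (adjusted p = 0.00666). In edgeR it passed under upper-quartile scaling at 0.54 (adjusted p = 0.0409), with a replicate block at 0.49 (adjusted p = 0.0431) and without poly(I:C) replicate 1 and saline replicate 1 at 0.48 (adjusted p = 0.0389). It missed the threshold in edgeR under RLE scaling (adjusted p = 0.0937), with library totals only (0.0526), with no filter (0.0938) and with the stricter filter (0.0600). It also missed in all 6 fits that left out 1 library (edgeR adjusted p = 0.0614 to 0.379). Of the 3 promoters printed above, only that of Erap1 held the response element core. Its exons share 11.5% of their bases with Cast on the opposite strand.

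Tapbpl, the gene of the peptide editor TAPBPR, had 38.8, 52.1 and 45.3 CPM with poly(I:C), against 33.7, 30.9 and 32.0 CPM with saline. Poly(I:C) replicate 2 was highest and replicate 1 lowest within its group, the reverse of the order seen for Erap1. The log2 difference was 0.50 (SE 0.12, 95% interval 0.20 to 0.79, edgeR adjusted p = 0.136). It passed in limma-voom with quality weights at 0.52 (adjusted p = 0.0106) and, in edgeR, without poly(I:C) replicate 1 and saline replicate 1 at 0.65 (adjusted p = 0.0269). It passed under no other alternative, with edgeR adjusted p of 0.106 to 0.407 in the 6 fits that left out 1 library.

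Tapbp, the tapasin gene, had 339, 405 and 346 CPM with poly(I:C), against 297, 302 and 317 CPM with saline. As for Tapbpl, the highest library was poly(I:C) replicate 2, and without it the log2 difference was 0.16 in place of 0.25 (SE 0.10, 95% interval 0.02 to 0.48). Tapbp did not pass in edgeR (adjusted p = 0.216) or under any alternative tried. Its exons share 29.0% of their bases with Zbtb22 on the same strand and Gm19412 on the opposite strand. Gm19412 had 62, 19 and 29 counts with poly(I:C) and 18, 21 and 22 with saline. Zbtb22 had 841, 1249 and 944 counts with poly(I:C) and 1205, 1147 and 969 with saline. Tapbp had 11928 to 13707 and 9781 to 10754 counts. The settings of the counting are not given, so these counts do not show how many Tapbp reads fall on shared bases.

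Levels of different genes were compared per kilobase of coding sequence, with lengths from GENCODE M21. Exon bases shared with other genes were not corrected for. They made up 29.0% for Tapbp, 18.5% for Tap2, 11.5% for Erap1, 3.87% for Tap1, 0.918% for Nlrc5 and 0% for Tapbpl. With poly(I:C) the order was Tapbp at 260 ± 26.0, Tap2 at 60.9 ± 0.247, Tap1 at 54.0 ± 1.46, Erap1 at 46.3 ± 4.12, Tapbpl at 33.6 ± 4.90 and Nlrc5 at 7.69 ± 0.478 CPM per kilobase (SD, n = 3), and no neighbours in that order overlapped between libraries. With saline it was Tapbp at 219 ± 7.28, Tap2 at 53.3 ± 4.33, Erap1 at 33.0 ± 1.98, Tap1 at 26.8 ± 4.02, Tapbpl at 23.8 ± 1.02 and Nlrc5 at 1.63 ± 0.646 CPM per kilobase. There the libraries of Erap1 overlapped those of Tap1, and those of Tap1 overlapped those of Tapbpl, while other neighbours did not overlap. Tapbp, Tap2 and Nlrc5 held the same places, at the top and bottom, when all exon bases were used in place of coding bases, and the order of Tap1, Erap1 and Tapbpl changed.

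Ratios of raw counts within a library do not depend on scaling between libraries. Tap1 reads per Tap2 read were 0.938, 0.912 and 0.891 in poly(I:C) replicates 1 to 3, against 0.550, 0.461 and 0.540 in saline replicates 1 to 3. The subunits of the pump were therefore counted at nearly equal numbers of reads with poly(I:C), and Tap1 at a lower number than Tap2 with saline, a log2 difference of 0.83 or 1.77-fold. Reads here are not corrected for gene length or shared exon bases, so equal numbers do not mean equal transcripts. With poly(I:C), Tap1 and Tap2 stood at 54.0 and 60.9 CPM per kilobase of coding sequence. Per kilobase of all exon bases they stood at 21.4 and 33.9 CPM. Tap1 reads per read of Psmb9, the immunoproteasome gene next to it on the opposite strand, were 3.12, 2.56 and 3.18 with poly(I:C) and 2.05, 1.98 and 2.47 with saline. These neighbours share 212 exon bases, 3.87% of the exons of Tap1, so some reads cannot be assigned to either. Nlrc5 reads per read of Ciita, the class II transactivator, were 9.52, 6.97 and 7.02 with poly(I:C), against 1.16, 0.700 and 0.975 with saline, a log2 difference of 3.07.

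Tapbp reads per Tapbpl read were lower with poly(I:C), at 8.73, 7.77 and 7.64 with poly(I:C) and 8.84, 9.78 and 9.89 with saline, a log2 difference of -0.24. Groups did not overlap in any of the 4 ratios. The share of other gene pairs without overlap was not computed. Among single genes, 14.0% of those tested did not overlap with poly(I:C) higher. The exact two-sided permutation test gave p = 0.10 for each, the smallest value that 3 against 3 libraries can give, and an adjusted p of 0.10 over the 4 ratios.

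**Figure D2:**
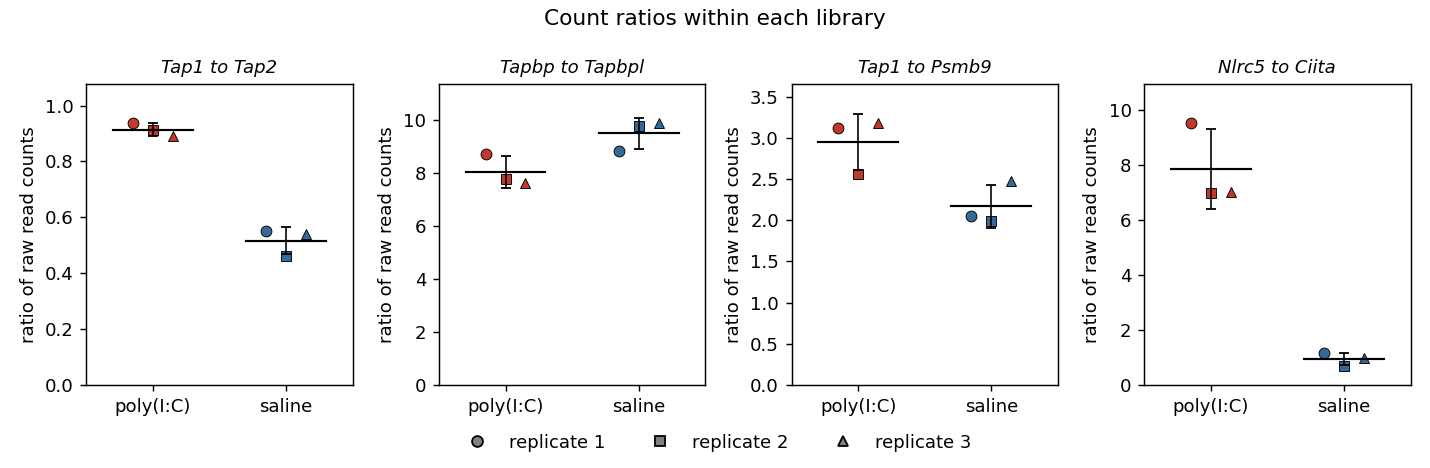
Ratio of raw read counts of the named genes within each library, with poly(I:C) on the left and saline on the right. Lines are means and bars SDs of 3 libraries. The Tap1 to Tap2 ratio lies between 0.891 and 0.938 with poly(I:C) and between 0.461 and 0.550 with saline.

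The pathway around these genes is described step by step, in lists chosen with earlier results of these data known. No test compared the lists with each other. Among 9 genes of class I heavy chains and B2m, edgeR called 1 higher and 0 lower, against 0.883% and 0.0747% of all tested genes. Their median log2 fold change was 0.54. DESeq2 called 3 of the 9 higher, where it called 3.76% of all genes higher and 6.78% in either direction. limma-voom with quality weights called 4 higher, where it called 8.61% of all genes higher and 19.5% in either direction. The gene called by edgeR was H2-T23, whose product Qa-1 is read by natural killer and T cells, at 139 ± 37.0 CPM with poly(I:C) and 49.2 ± 10.9 CPM with saline (2.83-fold, edgeR adjusted p = 0.0405). The light chain gene B2m stood at 1157 ± 66.2 and 793 ± 72.4 CPM (log2 0.54, edgeR adjusted p = 0.0939), and passed in DESeq2 (adjusted p = 0.00104) and limma-voom (adjusted p = 0.00682). H2-Q6 and H2-T22 had log2 differences of 1.35 and 0.74 (edgeR adjusted p = 0.151 and 0.171). H2-Q6 passed in DESeq2 (adjusted p = 0.0308) and limma-voom (adjusted p = 0.0144), at only 2.59 ± 0.341 CPM with poly(I:C) and 1.01 ± 0.364 CPM with saline. The classical heavy chain genes H2-K1 and H2-D1 had log2 differences of 0.53 and 0.28 (edgeR adjusted p = 0.237 and 0.533), and H2-Q7 of -0.06 (edgeR adjusted p = 0.967). In these genes the groups overlapped, and none passed in DESeq2 or limma-voom. Some heavy chain genes are near-identical copies, so the split of reads between those is uncertain.

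Upstream of the pump, 2 of 5 immunoproteasome and proteasome activator genes were called higher and 0 lower by edgeR and by DESeq2, with a median log2 fold change of 0.57. Of all tested genes edgeR called 0.883% higher, and DESeq2 called 3.76% higher and 6.78% in either direction. The count was 4 of 5 in limma-voom with quality weights, which called 8.61% of all genes higher and 19.5% in either direction. It was also 4 of 5 in edgeR without poly(I:C) replicate 1 and saline replicate 1, where 2.40% were called higher and 3.85% in either direction. Psme2 and Psme1, which encode the PA28 activator cap of the proteasome, rose 1.80-fold and 1.67-fold (edgeR adjusted p = 0.00707 and 0.0410). The catalytic subunit genes Psmb9 and Psmb8 had log2 differences of 0.57 and 0.31 (edgeR adjusted p = 0.161 and 0.237), and passed in limma-voom (adjusted p = 0.0192 and 0.0373) and in edgeR without those 2 libraries (adjusted p = 0.0343 and 0.0408). Of the 3 constitutive catalytic subunit genes, 0 were called by edgeR, DESeq2 or limma-voom with quality weights and 0 had an unadjusted p under 0.05 in edgeR, where 21.3% of all tested genes had one. Their log2 differences lay between -0.18 and 0.15, and those of Psmb5 and Psmb6 changed sign between settings. The calls for H2-T23, Psme1 and Psme2 were lost in 5, 5 and 3 of the 6 fits that each left out 1 library, with edgeR adjusted p up to 0.216, 0.228 and 0.0610. Those of H2-T23 and Psme1 held only without saline replicate 1, and that of Psme2 was lost without poly(I:C) replicate 3, saline replicate 2 or saline replicate 3. Psme1 also missed the threshold under RLE scaling (edgeR adjusted p = 0.0526).

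Beside the pump, 0 of 6 loading and glycoprotein folding genes were called by edgeR, with 3 at an unadjusted p under 0.05 (21.3% of all tested genes). DESeq2 called 3 of the 6, against 6.78% of all genes, and limma-voom with quality weights called 4, against 19.5%. Pdia3 and Calr, chaperones of the loading complex, and Canx, which receives new heavy chains, had log2 differences of 0.65, 0.52 and 0.40 (edgeR adjusted p = 0.0531, 0.0949 and 0.123), and these are the 3 that passed in DESeq2. In edgeR, Pdia3 passed under upper-quartile scaling (adjusted p = 0.0330), with library totals only (0.0363) and with the stricter filter (0.0311), and both Pdia3 and Calr passed without poly(I:C) replicate 1 and saline replicate 1 (0.0195 and 0.0233). Uggt1, a folding sensor, was at 0.15. Of 6 other peptidases tested, 0 were called by edgeR and by DESeq2 and 2 by limma-voom with quality weights, which called 19.5% of all genes. In edgeR 4 had an unadjusted p under 0.05 (21.3% of all tested genes). Lap3 and Lnpep had log2 differences of 0.25 and 0.36, and Npepps and Blmh of -0.25 and -0.18. Lap3 and Lnpep were the 2 that passed in limma-voom, and Lnpep passed in edgeR without poly(I:C) replicate 1 and saline replicate 1 (adjusted p = 0.0338). Of 5 other ABC transporters of organelle membranes, Abcb6 to Abcb10, 0 were called by edgeR, DESeq2 or limma-voom with quality weights and 0 had an unadjusted p under 0.05 in edgeR, with differences from -0.28 to 0.14.

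Upstream of transcription, 2 of 12 enhanceosome and interferon-signalling factors were called higher and 0 lower by edgeR, with a median log2 fold change of -0.08. Of all tested genes edgeR called 0.883% higher and 0.0747% lower. In DESeq2 3 of the 12 were higher and 1 lower, where 557 and 448 of 14832 genes were. limma-voom gave 4 higher and 2 lower, where 1268 and 1608 of 14727 genes were. Stat2 and Irf9, which carry interferon signals to the nucleus, rose 3.32-fold and 2.22-fold (edgeR adjusted p = 0.00108 and 0.00145), and each was called in all 6 fits that left out 1 library. Irf1, a transcription factor at class I promoters, had a log2 difference of 0.52 (edgeR adjusted p = 0.121) and passed in DESeq2 (adjusted p = 0.0215) and limma-voom (adjusted p = 0.0209). The genes of the RFX complex that NLRC5 binds did not pass in edgeR, with log2 differences of 0.22 for Rfx5, -0.27 for Rfxank and -0.44 for Rfxap. Rfxap passed as lower in limma-voom at -0.56 (adjusted p = 0.0127). Ciita was at 5.72 ± 0.653 CPM with poly(I:C) and 9.65 ± 1.60 CPM with saline, a log2 difference of -0.75 (edgeR adjusted p = 0.151), and it passed as lower in DESeq2 at -0.78 (adjusted p = 0.0241) and in limma-voom at -0.62 (adjusted p = 0.0261).

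**Figure D3:**
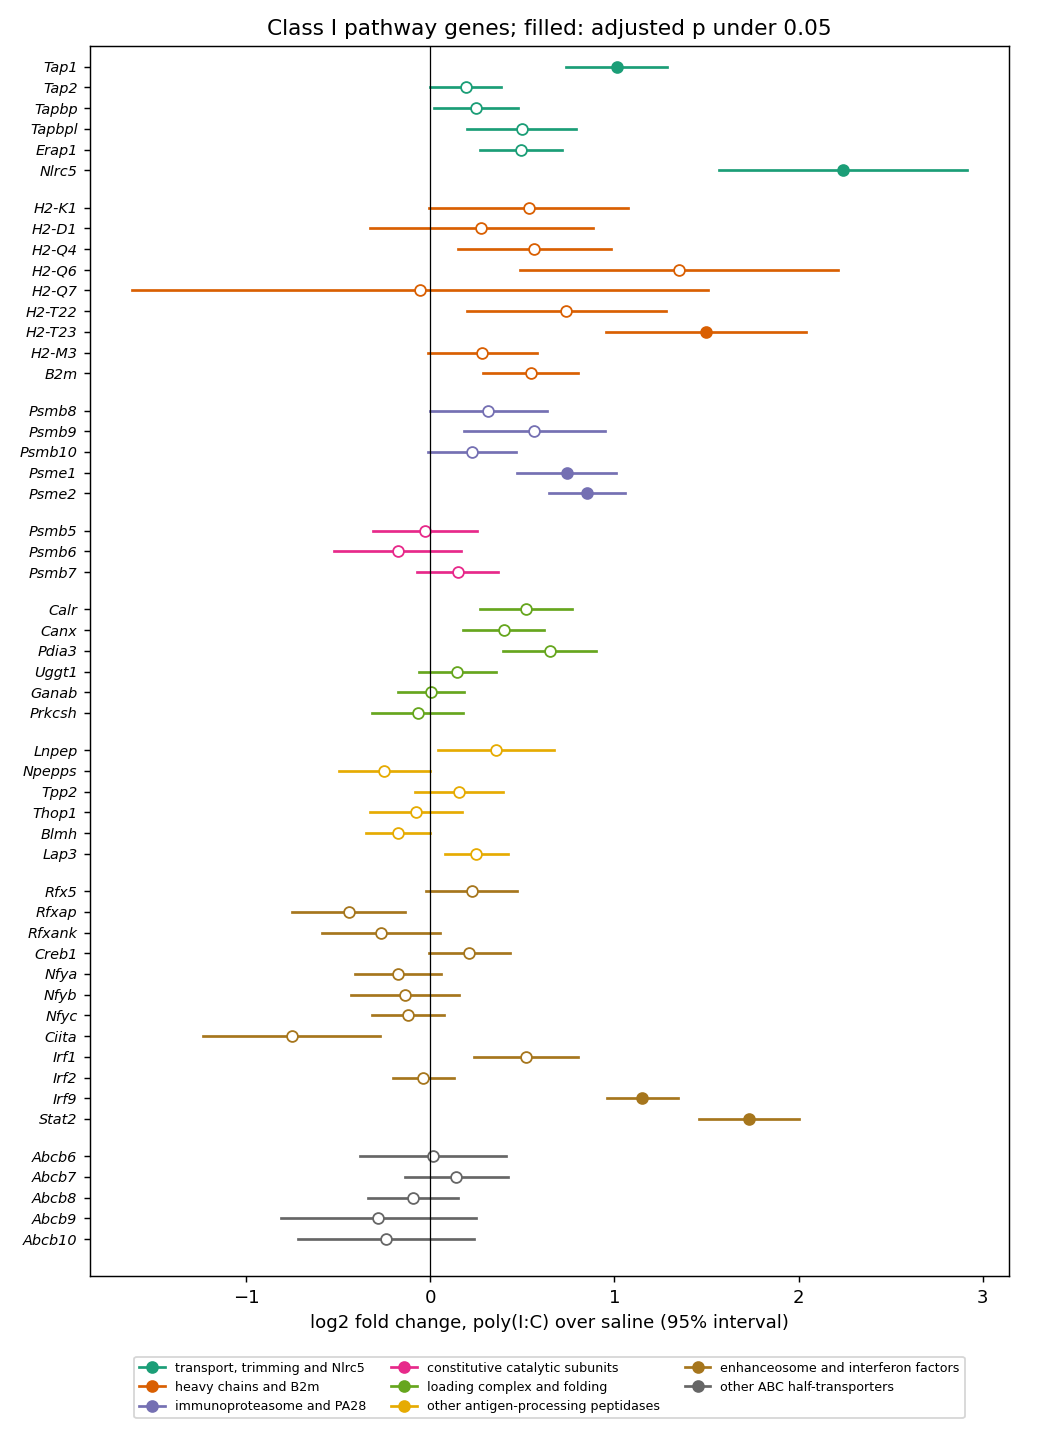
Log2 fold change of poly(I:C) over saline with its 95% interval for the 6 genes, at the top, and for the lists of the class I pathway. Filled points have an edgeR adjusted p under 0.05. Nlrc5 at 2.24 and Stat2 at 1.73 lie farthest to the right, and Ciita at -0.75 farthest to the left.

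Outside the 6, the genes with at least 5 CPM whose log2 CPM was most like the mean log2 CPM of the 6, to which Nlrc5 with its large difference contributes most, were Ifi27l2a, H2-T-ps, Epsti1, Adgrg5 and Sdc3, with Pearson r between 0.995 and 0.999 over 6 libraries. These values describe 2 groups of 3 libraries that share a treatment and carry no test. Ifi27l2a stood at 159 ± 6.83 CPM with poly(I:C) and 31.2 ± 11.7 CPM with saline, and Adgrg5 at 116 ± 1.92 and 54.7 ± 6.87 CPM.

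The number of the 6 genes called depended on the tool and on single libraries, while the sign of each of the 6 did not. It was 5 in limma-voom with quality weights, where 19.5% of all genes were called, 3 in DESeq2, where 6.78% were, and 4 without poly(I:C) replicate 1 and saline replicate 1, where 3.85% were. Leaving out poly(I:C) replicate 3 or saline replicate 3 took it to 0, where 0.338% and 0.348% of all genes were called and 1831 and 1913 had an unadjusted p under 0.05 in edgeR. All 6 genes were higher with poly(I:C) in every one of these fits.

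**Figure D4:**
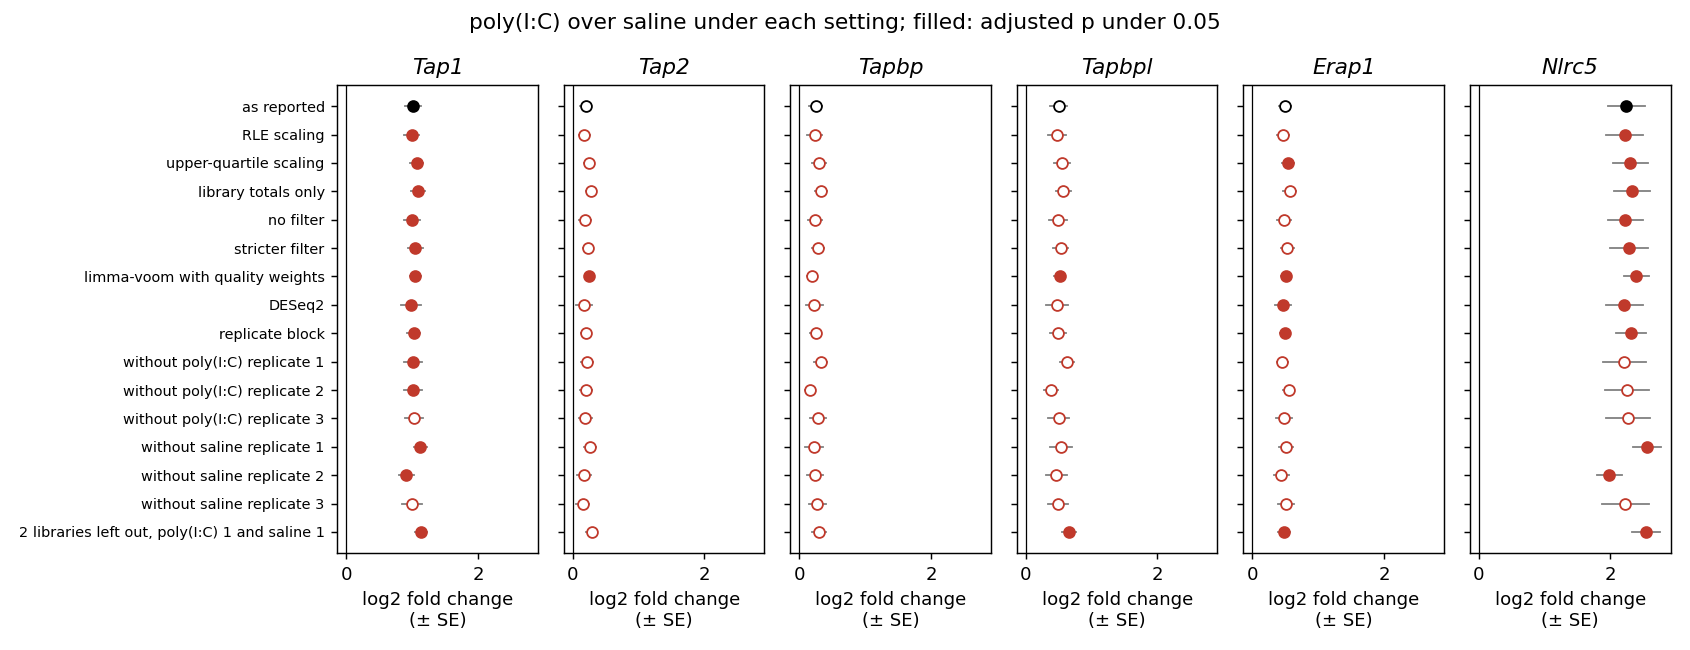
Log2 fold change of poly(I:C) over saline, with its SE, for each of the 6 genes under every setting, from the reported fit at the top to the fit without poly(I:C) replicate 1 and saline replicate 1 at the bottom. Filled points have an adjusted p under 0.05. Every point lies to the right of 0, and Nlrc5 ranges from 1.98 to 2.56.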

How the data were processed

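The authors deposited raw read counts per gene symbol, 1 column per library, neither normalised nor pooled. Trimming, alignment and counting used fastp, HISAT2 and HTSeq on build GRCm39, per the submitters' processing notes, with versions, settings, annotation and strand mode not given in the sources used here. Per the labels' protocols, SMARTer cDNA was made into Nextera XT libraries, which do not mark strand, so reads of overlapping genes cannot be told apart. No molecular identifiers are mentioned, so floors cover counting error only.

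Genes were kept by filterByExpr, scaled by TMM and tested with edgeR 4.0.16 in R 4.3.3 (glmQLFit and glmQLFTest, 6 libraries, no covariate), with Benjamini-Hochberg adjustment over 14727 genes and a threshold of 0.05. An SE was taken as the size of the log2 fold change divided by the root of F. Alternatives were other scalings and filters, limma-voom (limma 3.58.1), DESeq2 1.42.0, a replicate block, and left-out libraries. The edgeR fit was tested on simulated data. No library was a duplicate of another (chi-square per gene 21.2 to 113 within groups). Exon and coding lengths and overlaps come from GENCODE M21 on GRCm38, and promoters from RefSeq GRCm38.p6. The 6 genes, the pathway lists and the marker lists were chosen with earlier results of these data known. Named genes are the 6, up to 4 per pathway list with the smallest p, and the 5 most similar in pattern. H2-K1, H2-D1, H2-Q7, Rfx5, Rfxank, Rfxap and Ciita, the genes sharing exon bases with the 6, and Fmr1 were named besides. Of the listed genes, Nrdc is not analysed here, and 1 interferon-signalling factor is not reported here.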

Additional observations from a re-analysis of the deposited data

How the results depend on the processing

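The 6 genes and the 4 ratios kept their sign under every alternative run. The median log2 fold change of all genes, 0.0098, was -0.0107 under RLE scaling and -0.0080 in DESeq2. Uncalled pathway genes changed sign under at least 1 alternative: Psmb5, Psmb6, Abcb6, Abcb10, Ganab, Prkcsh, H2-Q7, Irf2 and Nfyb. Leaving out 1 library at a time gave 51 to 183 genes called in place of 141, 0 to 2 of the 6 genes called, and log2 fold changes of 0.91 to 1.12 for Tap1 and 1.98 to 2.56 for Nlrc5. limma-voom with quality weights called 2876 genes and 5 of the 6, adding Tap2 (0.24), Tapbpl (0.52) and Erap1 (0.50). DESeq2 called 1005 genes and added Erap1 (0.46), as did upper-quartile scaling (0.54). Without poly(I:C) replicate 1 and saline replicate 1 there were 569 genes and 4 of the 6, adding Tapbpl (0.65) and Erap1 (0.48), and the log2 Tapbp to Tapbpl ratio difference was -0.35 in place of -0.24. The cause of these moves was not tested. Correlations of deviations between same-numbered libraries were 0.11, -0.12 and 0.19, and 1 of 3 poly(I:C) libraries was closest to its own number. So few values cannot decide whether the libraries were paired. With the replicate block 260 genes were called, Erap1 passed (0.49), and H2-T23 and Psme1 did not. Removing mitochondrial genes was not run, since 0 rows carry the mt- prefix.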

Other observations

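Promoter windows of the surrounding class I pathway were searched for the same response element core, as a description. It was present in 3 of 9 heavy chain and B2m genes (H2-T22, H2-T23 and B2m), in 1 of 5 immunoproteasome and activator genes (Psme1), and in 2 of the 10 enhanceosome and interferon-signalling factors with a window (Irf2 and Stat2). It was in 0 of 6 loading and folding genes, 0 of 6 other peptidases, 0 of 2 constitutive catalytic subunits and 0 of 3 other ABC transporters with a window. Of these 6 genes with the letters, H2-T23, Psme1 and Stat2 passed the edgeR test, and B2m, H2-T22 and Irf2 did not. Erap1, which has the letters, did not pass either, while Tap1 and Psme2 passed with a window that lacks them. Of all promoter windows 3.44% hold the core, and 0.883% of all tested genes were called higher by edgeR. A link between the letters and the calls was not tested.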
